A study of Astyanax mexicanus with 22 samples.

Results

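The genes described here encode antioxidant and glutathione enzymes, 67 of the 27420 genes counted in ovaries of the Mexican tetra, Astyanax mexicanus. They were chosen by gene symbol alone: glutathione peroxidases (gpx), peroxiredoxins (prdx) and sulfiredoxin, superoxide dismutases (sod), catalase (cat), glutathione transferases (gst and mgst), thioredoxins and their relatives (txn), glutaredoxins (glrx), the enzymes that make and recycle glutathione, NQO1, heme oxygenases (hmox), methionine sulfoxide reductases (msr), and the regulators NFE2L2 and KEAP1. A member also needed a count in at least 5 libraries, which left out 1 matching row, msrb2. Of the 67 members, 51 had a count in all 22 libraries and 55 passed the filter on low counts and were tested. The 12 that were not tested had 7 to 105 counts over all libraries together (GSTM3, GPX2, gpx4a, gpx9, nfe2l2b, mgst1.1, mgst1.2, SRXN1, SOD3, sod3a, 1 of 3 gstt1b rows and 1 of 2 mgst3b rows).

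Cells meet reactive oxygen with a relay of enzymes. Superoxide dismutases turn superoxide into hydrogen peroxide, and catalase, glutathione peroxidases and peroxiredoxins remove the peroxide. Glutathione peroxidases and peroxiredoxins draw electrons from glutathione or thioredoxin, which glutathione reductase and thioredoxin reductases recharge with NADPH. In mammals, the transcription factor NRF2 (gene NFE2L2) drives many of these genes when its inhibitor KEAP1 is disabled by oxidants. Growing oocytes store transcripts that serve the egg and the early embryo.

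The ovaries came from surface fish, the eyed river form, and Pachón cavefish, an eyeless form from a cave of that name. All fish were labelled wild type, and the libraries were made from the right ovary of control (untreated) or starved females in batches labelled old and new. Of the surface fish libraries, 4 were old controls, 2 old starved, 2 new controls and 2 new starved. Of the Pachón libraries, 4 were old controls, 4 old starved, 2 new controls and 2 new starved. Fish were age-matched at approximately 500 and 1200 days, but the labels do not tie these ages to the batches and do not state how long fish were starved. The labels do not say whether each library is a separate fish. The p-values therefore judge differences against the spread between these libraries, which may not be the spread between fish.

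Libraries held 4860620 to 7513790 gene counts. The oocyte markers gdf9, bmp15, zar1 and their like summed to 2170 to 4630 CPM (counts scaled to library size) in every library, as the tissue label implies. Levels below are CPM with TMM (trimmed mean) scaling factors. They are compared between libraries for 1 gene or 1 fixed sum of genes, and not between genes, because gene lengths were not used. A change is a log2 difference ± SE, and a gene is called when its adjusted p is under 0.05 in edgeR's quasi-likelihood test with Benjamini-Hochberg adjustment over 15607 genes. Summed over all 67 members, the level was 2020 to 2440 CPM (median 2330) in 10 surface libraries and 2130 to 2330 CPM (median 2210) in 12 Pachón libraries, so the summed levels overlapped.

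Between control ovaries of both morphs, 27 of 55 members were called, 12 higher and 15 lower in Pachón fish. This is 49.1% of members, against 34.6% of all genes tested (16.6% higher and 18% lower). In starved fish 29 were called, 15 higher and 14 lower, or 52.7% against 36% of all genes (18.3% higher and 17.7% lower). With sample weights 16 members and 3489 of the 15607 genes were called. Within batches, 21 members were called in old and 11 in new controls (30.4% and 14.9% of all genes), and 19 in old and 10 in new starved fish (28.4% and 16.7%). The libraries of both morphs did not overlap for 13 members in controls (23.6% against 18.6% of all genes) and for 15 in starved fish (27.3% against 21.5%). The median change was -0.02 over members and -0.01 over all genes in controls, and 0.10 and 0 in starved fish, so members moved both ways. The comparisons in controls and in starved fish share no library: 22 members were called in both, 9 higher and 13 lower in Pachón, with the same sign in all 22. These are 81.5% of the members called in controls and 75.9% of those called in starved fish, where the shares over all genes are 68.7% and 66.1%. Over all genes, 3706 of the 3712 called in both had the same sign, so the shared sign is not particular to members. In bulk ovary, fewer cells of a type and less RNA per cell cannot be told apart.

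**Figure D1:**
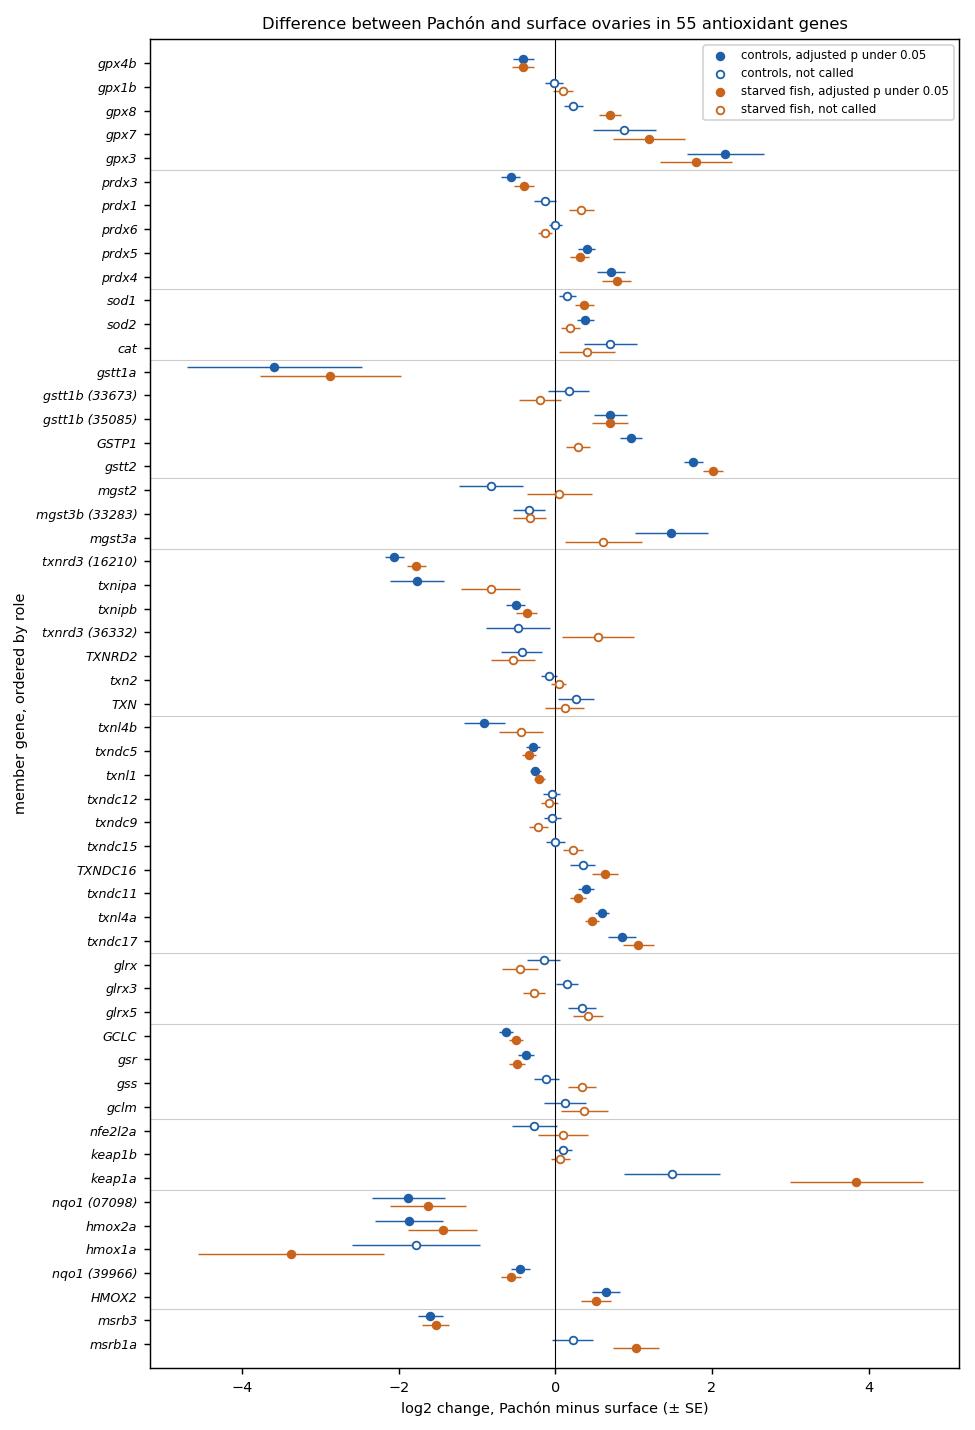
Change between morphs for the 55 tested members, ordered by role. The x axis is the log2 change, Pachón minus surface, with bars for ± SE; blue points are controls and orange points starved fish, filled where the adjusted p is under 0.05. The txnrd3 row (ENSAMXG00000016210) lies near -2 in both and gstt2 near 2 in both, and 22 members are filled in both.

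Over all 10 surface and 12 Pachón libraries, whatever the batch or diet, 6 of the 55 tested members did not overlap between morphs. This held for 1325 of 15607 genes, or 8.49% (4.13% with Pachón above and 4.36% below). The members' count was not tested against that share. Pachón libraries were all lower for txnrd3 (ENSAMXG00000016210), msrb3, GCLC, hmox2a and txndc5, and all higher for gstt2. These genes are a thioredoxin reductase, a methionine sulfoxide reductase, the catalytic subunit of glutathione synthesis, a heme oxygenase, a disulfide-exchange protein of the endoplasmic reticulum and a theta-class glutathione transferase.

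The lowest p among members in controls belonged to txnrd3 (ENSAMXG00000016210), annotated as a thioredoxin reductase, the selenium-containing enzyme family that keeps thioredoxin reduced. Old surface controls had 121, 111, 147 and 107 CPM and new ones 129 and 131 CPM, while starved surface fish had 132 and 117 CPM (old) and 117 and 105 CPM (new). Old Pachón controls had 28.9, 29.1, 27.8 and 29.4 CPM and new ones 27.2 and 35.9 CPM, and starved Pachón fish had 41.8, 33, 24.9 and 32.6 CPM (old) and 34.2 and 37.4 CPM (new). Every Pachón library lay far below every surface library. The change was -2.06 ± 0.12 in controls (adjusted p = 3.95e-10) and -1.78 ± 0.12 in starved fish (adjusted p = 3.17e-09). Within batches it was -2.07 (old) and -2.04 (new) in controls.

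A further row with the symbol txnrd3 (ENSAMXG00000036332) did not share that pattern. Its level was 1.29 to 18.1 CPM in surface and 2.19 to 5.02 CPM in Pachón libraries, and the morphs overlapped. The change was -0.48 ± 0.41 in controls (adjusted p = 0.386) and 0.54 ± 0.46 in starved fish (adjusted p = 0.384). Reads may be split between rows of the same symbol, and this was not examined; 9 members sit on 4 such symbols. The sum of both rows still separated the morphs, at 107 to 165 CPM in surface and 27.1 to 46.7 CPM in Pachón libraries. The mitochondrial thioredoxin reductase TXNRD2 was at 3.22 to 7.92 CPM in surface and 2.41 to 6.07 CPM in Pachón libraries and was not called (changes of -0.43 and -0.54, adjusted p = 0.209 and 0.15).

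The thioredoxins themselves were not called. Cytosolic TXN had 5.03 to 16.3 CPM in surface and 6.88 to 17.1 CPM in Pachón libraries, and mitochondrial txn2 40.3 to 47.8 CPM and 34 to 53.9 CPM. The adjusted p ran from 0.415 to 0.788 over both genes and diets, and the ranges overlapped. Thioredoxin-interacting protein, which binds and inhibits thioredoxin and answers to glucose in mammals, is encoded by txnipa and txnipb here. In controls txnipa was at 143, 114, 236 and 34.2 CPM (old surface), 101 and 81.5 CPM (new surface), 36.5, 46.8, 37.7 and 29.6 CPM (old Pachón) and 21.3 and 33.6 CPM (new Pachón). Old surface control 4 alone fell among the Pachón values. The change in controls was -1.77 ± 0.35 (adjusted p = 0.000963), with -1.81 (old) and -1.74 (new) within batches. Its paralog txnipb was lower as well in controls, by a smaller step: 74.2, 91.7 and 122 CPM (lowest, median, highest of 6) against 62.3, 69.2 and 76.2 CPM, a change of -0.51 ± 0.12 (adjusted p = 0.00303). In starved fish txnipa was not called (-0.83 ± 0.38, adjusted p = 0.101). There txnipb was called lower in Pachón fish (-0.37), a call lost without any of 4 libraries (adjusted p from 0.0536 to 0.162).

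Among the 10 thioredoxin-domain and thioredoxin-like members, 3 were higher and 3 lower in Pachón controls, and 4 higher and 2 lower in starved Pachón fish. Over all genes tested, 16.6% were higher and 18% lower in controls, and 18.3% and 17.7% in starved fish. Counts between morphs for other groups of members and for cell markers stand against the same shares. The disulfide reductase txndc17 was at 10.7, 11.1 and 14.5 CPM (lowest, median, highest of 6) in surface controls and at 13.8, 22.3 and 26.1 CPM in Pachón controls. Starved surface fish had 9.22, 8.05, 8.85 and 15.9 CPM, and starved Pachón fish 15.2, 20 and 26.5 CPM (lowest, median, highest of 6). Only 1 library on each side crossed in each diet. The change was 0.85 ± 0.18 in controls (adjusted p = 0.00128) and 1.06 ± 0.20 in starved fish (adjusted p = 0.000405), and it was 0.81 to 1.08 within each batch.

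The rule on symbols also took in txnl4a and txnl4b, whose proteins are known as parts of the spliceosome rather than as antioxidants. txnl4a was at 18.6, 23.8 and 27.7 CPM in surface controls and at 31.1, 32.1 and 37.4 CPM in Pachón controls (lowest, median, highest of 6), with no overlap. Starved surface libraries had 23.5, 26.7, 21.4 and 23.2 CPM, below the 27.5 to 35.4 CPM of starved Pachón libraries. The change was 0.59 ± 0.09 in controls (adjusted p = 4.75e-05) and 0.47 ± 0.09 in starved fish (adjusted p = 0.000827).

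The protein txndc5, which helps fold secreted proteins, was at 140 to 178 CPM in surface and at 96 to 138 CPM in Pachón libraries. No Pachón library reached the lowest surface library. The change was -0.34 ± 0.09 in starved fish (adjusted p = 0.00693) and -0.29 ± 0.09 in controls (adjusted p = 0.0128), where the call was lost without Pachón new control 2 (-0.21, adjusted p = 0.106). TXNDC16, a relative, was called in starved fish alone, at 15.4 against 24.2 CPM on average (0.63 ± 0.17, adjusted p = 0.00838). The thioredoxin-like txnl1 (-0.26 ± 0.07, adjusted p = 0.00651) and the spliceosome gene txnl4b (-0.91 ± 0.26, adjusted p = 0.0101) were lower in Pachón controls. The first call was lost without Pachón new control 2 (adjusted p = 0.0627), the second without Pachón new control 1 (0.0562) or surface new control 1 (0.0755). For TXNDC16 in controls the change was 0.35 ± 0.16 (adjusted p = 0.0979), and the response to starvation differed between morphs by 0.28 ± 0.24 (adjusted p = 0.783).

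Among genes that make and recycle glutathione, GCLC and gsr were lower in Pachón ovaries. GCLC (ENSAMXG00000012685), the catalytic subunit of the rate-limiting glutamate-cysteine ligase, was at 118, 96.1, 98.6 and 107 CPM in old and 106 and 104 CPM in new surface controls. Pachón controls had 70.3, 68.1, 70.5 and 65.3 CPM (old) and 68.2 and 66.3 CPM (new). Starved surface fish had 117, 95.8, 120 and 85 CPM, and starved Pachón fish 66.4, 71.8 and 80.7 CPM (lowest, median, highest of 6). The morphs stood apart in both diets, and the SD was 2.09 CPM in Pachón and 7.51 CPM in surface controls (n = 6 each). The change was -0.63 ± 0.09 in controls (adjusted p = 2.21e-05) and -0.51 ± 0.09 in starved fish (adjusted p = 0.000342), with -0.61 and -0.64 in the old and new control batches.

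Its regulatory partner gclm was at 4.51 to 29.5 CPM in surface and 16.3 to 29.2 CPM in Pachón libraries and was not called (0.12 ± 0.27 in controls, adjusted p = 0.772). The last step of synthesis, gss, was not called between morphs either (-0.12 ± 0.16 in controls, adjusted p = 0.591). Glutathione reductase, gsr, which regenerates glutathione with NADPH, was lower in Pachón fish. Surface controls had 39.1, 45.5 and 51.8 CPM and Pachón controls 30.7, 33.2 and 39.5 CPM (lowest, median, highest of 6), with a slight overlap. In starved fish, surface libraries had 46.8, 39.9, 46.2 and 48.1 CPM, all above the 24.3 to 36.6 CPM of Pachón libraries. The change was -0.38 ± 0.10 in controls (adjusted p = 0.00513) and -0.49 ± 0.10 in starved fish (adjusted p = 0.000993).

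**Figure D2:**
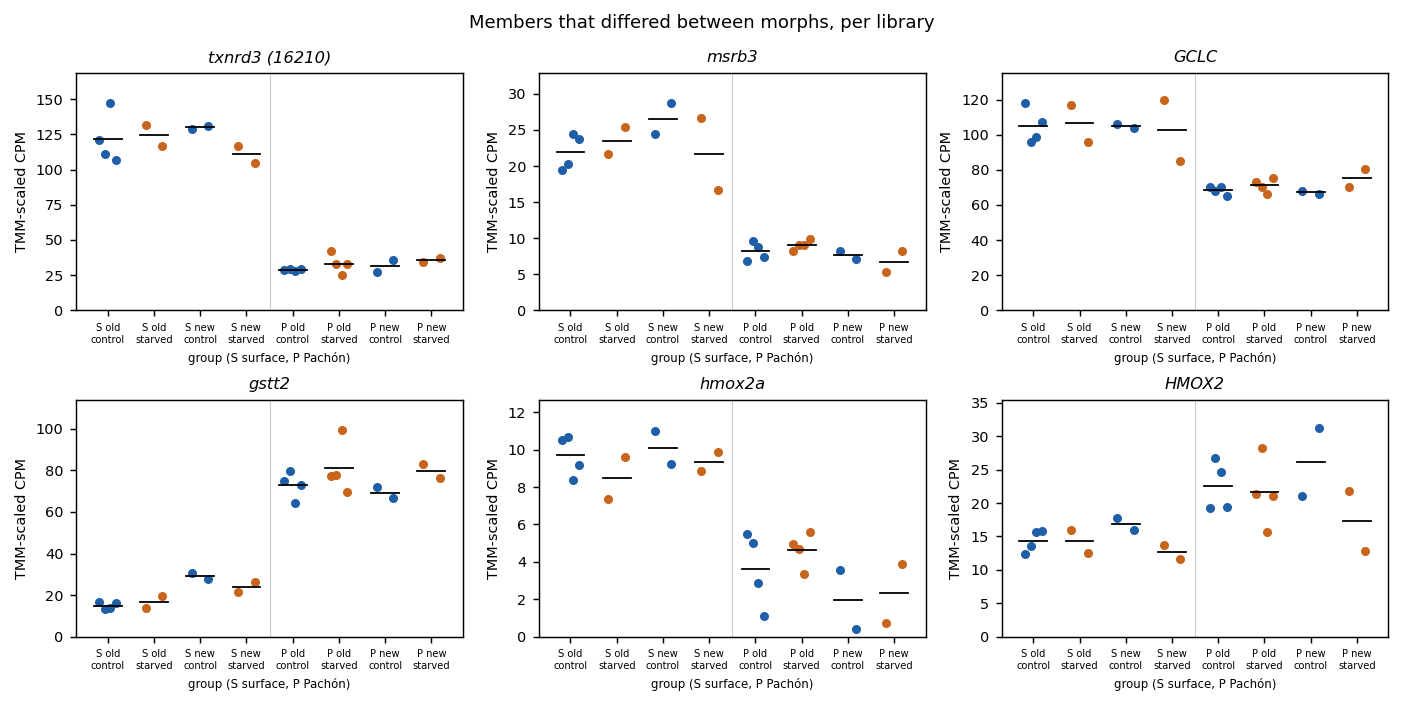
Levels of 6 members in every library. The y axis is TMM-scaled CPM, each point is a library, lines are group means, S and P are surface and Pachón fish, blue is control and orange starved. For this txnrd3 row, msrb3, GCLC, gstt2 and hmox2a the morphs do not overlap; HMOX2 lies higher in most Pachón libraries, opposite to hmox2a.

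Glutathione transferases, which attach glutathione to toxic compounds, were mixed. Of 5 tested soluble transferases, 3 were higher and 1 lower in Pachón controls. The theta-class gstt2 (ENSAMXG00000003784) was at 16.9, 13.1, 13.9 and 16 CPM in old and 30.6 and 27.7 CPM in new surface controls, and at 13.7 and 19.6 CPM (old) and 21.7 and 26.2 CPM (new) in starved surface fish. Pachón controls had 74.7, 79.9, 64.3 and 73.2 CPM (old) and 71.8 and 66.5 CPM (new), and starved Pachón fish 77.2, 77.6, 99.4 and 69.6 CPM (old) and 83.3 and 76.3 CPM (new). The lowest Pachón library exceeded the highest surface library. The change was 1.76 ± 0.12 in controls (adjusted p = 2.12e-09) and 2.01 ± 0.13 in starved fish (adjusted p = 1.51e-09).

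For gstt1a, another theta-class gene, the direction was opposite and the levels were low. Surface libraries ranged from 0 to 7.58 CPM (median 3.63) and Pachón libraries from 0 to 1.05 CPM (median 0.265), with 178 and 29 counts in all. It was called in both diets (-3.59 ± 1.12 in controls, adjusted p = 0.0184, and -2.88 ± 0.90 in starved fish, adjusted p = 0.0184). No Pachón library held more than 7 counts, so only surface libraries reached the filter's minimum count of 10. Because the high side let the gene be tested, these calls are no independent sign of a difference. With sample weights the call in controls was lost (-2.66, adjusted p = 0.0606). In controls the call was lost without Pachón new control 1 (-3.14, adjusted p = 0.0891) or surface old control 4 (-2.17, adjusted p = 0.193), and in starved fish without Pachón new starved 2 (-2.50, adjusted p = 0.0928) or surface old starved 2 (-1.31, adjusted p = 0.403). Of the tested gstt1b rows, 1 (ENSAMXG00000035085) was higher in Pachón fish, by 0.70 ± 0.21 in controls (adjusted p = 0.0163). That call was lost without Pachón new control 1 (adjusted p = 0.109) or surface new control 2 (adjusted p = 0.1). The other (ENSAMXG00000033673) was not called (0.17 ± 0.26, adjusted p = 0.65).

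The pi-class GSTP1 differed between morphs in controls, mostly through the new batch. Old surface controls had 86.9, 81.3, 60.9 and 84.1 CPM and new surface controls 28.9 and 40.2 CPM. Pachón controls had 109, 92.4, 80 and 102 CPM (old) and 119 and 97.8 CPM (new). The new surface controls lay below all other libraries, whereas the old surface and Pachón controls overlapped. The change in controls was 0.97 ± 0.14 (adjusted p = 3.62e-05), made of 0.29 in the old batch (adjusted p = 0.177) and 1.65 in the new batch (adjusted p = 0.000111). In starved fish it was 0.29 ± 0.15 (adjusted p = 0.142). Of 3 tested membrane-bound transferases, mgst3a was called higher in Pachón controls (1.48 ± 0.47, adjusted p = 0.0196), and that call was lost without Pachón new control 1 (0.89, adjusted p = 0.236) or surface new control 1 (1.29, adjusted p = 0.0958).

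Peroxiredoxins, which mostly reduce peroxides with thioredoxin, moved both ways, 2 higher and 1 lower of 5 tested in each diet. The mitochondrial prdx3 was at 32.3, 47.7, 46.6 and 39.7 CPM (old) and 40.3 and 34.3 CPM (new) in surface controls, and at 27.3, 29.6, 23.6 and 29.4 CPM (old) and 27.4 and 23.6 CPM (new) in Pachón controls. Those groups did not overlap, and the change was -0.57 ± 0.12 (adjusted p = 0.00102). In starved fish the change was -0.40 ± 0.13 (adjusted p = 0.0189), a call lost without Pachón new starved 1 (-0.33, adjusted p = 0.106) or surface old starved 1 (-0.36, adjusted p = 0.0751). Within starved fish it was -0.75 (old) and -0.04 (new batch).

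The peroxiredoxin of the endoplasmic reticulum, prdx4, went the other way. Surface controls had 28.4, 38.7 and 46.5 CPM and Pachón controls 55.8, 66.7 and 76.5 CPM (lowest, median, highest of 6), with no overlap. In starved fish, surface libraries had 20.4, 41.5, 36.4 and 57.7 CPM and Pachón libraries 45.2 to 78.5 CPM, and 1 surface library overlapped. The change was 0.71 ± 0.18 in controls (adjusted p = 0.00454) and 0.78 ± 0.19 in starved fish (adjusted p = 0.00416). Cytosolic prdx1 (-0.13 ± 0.14 in controls, adjusted p = 0.526) and prdx6 (0 ± 0.08, adjusted p = 0.999) were not called. prdx5 was higher in Pachón controls by 0.40 ± 0.11 (adjusted p = 0.00971), which was lost without Pachón new control 1 (0.28, adjusted p = 0.104). In starved fish it was called at 0.31 ± 0.12 (adjusted p = 0.0479) and lost without any of 14 libraries (adjusted p from 0.0534 to 0.161), with sample weights (0.189), with no filter (0.083) and with groups compared alone (0.0773).

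Of 5 tested glutathione peroxidases, 1 was higher and 1 lower in Pachón controls, and 3 were higher and 1 lower in starved Pachón fish. Among them, gpx8 of the endoplasmic reticulum was called in starved fish alone. Starved surface libraries had 15.8 and 18.2 CPM (old) and 19.8 and 35.8 CPM (new), and starved Pachón libraries 33.4, 32.4, 33 and 33 CPM (old) and 39.6 and 35.6 CPM (new). All but 1 surface library lay below every Pachón library. The change was 0.70 ± 0.14 (adjusted p = 0.000555), with 0.95 (old) and 0.44 (new) within batches. In controls it was 0.23 ± 0.12 (adjusted p = 0.164). The secreted gpx3 was low, at 0 to 2.55 CPM (65 counts) in surface and 1.61 to 5.32 CPM (214 counts) in Pachón libraries. It was called in both diets, at 2.17 ± 0.49 in controls (adjusted p = 0.00214) and 1.79 ± 0.46 in starved fish (adjusted p = 0.00559). In controls the fitted change was 0.47 in the old batch (adjusted p = 0.461) and 3.87 in the new one (adjusted p = 0.00522), where the surface libraries held 0 and 2 counts, so its size depends on the fit. The difference between those batches was not called (-3.39 ± 0.99, adjusted p = 0.107).

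The peroxidase gpx4b, of the family that clears lipid peroxides in membranes, was at 27.5, 37 and 48.1 CPM in surface and 22.3, 27.9 and 33 CPM in Pachón libraries (lowest, median, highest of 10 and 12). The ranges overlapped, and the change was -0.41 ± 0.13 in controls (adjusted p = 0.0235) and -0.41 ± 0.14 in starved fish (adjusted p = 0.0314). In controls the call was lost without Pachón new control 2 (-0.33, adjusted p = 0.122) or surface new control 2 (-0.35, adjusted p = 0.108), and in starved fish without any of 5 libraries (adjusted p from 0.0505 to 0.103). Its paralog gpx4a was not tested, at 0 to 0.508 CPM in surface and 0.337 to 2.5 CPM in Pachón libraries. The third peroxidase higher in starved Pachón fish, gpx7, was at the threshold (1.19 ± 0.46, adjusted p = 0.0495) and was lost without any of 17 libraries. gpx1b was not called (-0.02 ± 0.12 in controls, adjusted p = 0.938).

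Each tested superoxide dismutase was called higher in Pachón fish in 1 diet. Mitochondrial sod2 was at 126, 124, 140 and 105 CPM (old) and 141 and 120 CPM (new) in surface controls, and at 173, 148, 149 and 172 CPM (old) and 194 and 146 CPM (new) in Pachón controls. Those groups did not overlap (0.38 ± 0.11, adjusted p = 0.0139), but the call was lost without Pachón new control 1 (0.28, adjusted p = 0.114) or surface new control 2 (0.33, adjusted p = 0.0765). In starved fish the change was 0.19 ± 0.12 (adjusted p = 0.233). Cytosolic sod1 was at 40.4 to 61.8 CPM in surface and 53.9 to 75.6 CPM in Pachón libraries, with changes of 0.15 ± 0.11 in controls (adjusted p = 0.313) and 0.37 ± 0.12 in starved fish (adjusted p = 0.0181). The latter was lost without Pachón new starved 2 (adjusted p = 0.0535), surface new starved 2 (0.0667) or surface old starved 1 (0.0998).

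Catalase, cat, which breaks down peroxide in peroxisomes, was uneven within surface fish. Old surface controls had 138, 22.8, 145 and 35.9 CPM, new surface controls 213 and 199 CPM, and starved surface fish 122 and 155 CPM (old) and 216 and 268 CPM (new). Pachón libraries kept to 195 to 270 CPM. Old surface controls 2 and 4 lay far below all other libraries. Between morphs in controls the change was 0.70 ± 0.34 (adjusted p = 0.12), with 1.33 in the old batch (adjusted p = 0.0181) and 0.07 in the new batch (adjusted p = 0.951), a difference that was not called (1.26 ± 0.67, adjusted p = 0.439). It was called without surface old control 3 (0.89, adjusted p = 0.04), with sample weights (0.90, adjusted p = 0.0319) and with limma on scaled CPM (0.89, adjusted p = 0.0467). In starved fish the change was 0.40 ± 0.36 (adjusted p = 0.416), called with groups compared alone (0.40, adjusted p = 0.0244).

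Heme oxygenases open the heme ring and NQO1 reduces quinones; in mammals NRF2 drives NQO1 and HMOX1. Paralogs of the constitutive heme oxygenase moved apart. hmox2a was at 10.5, 10.7, 8.39 and 9.2 CPM (old) and 11 and 9.23 CPM (new) in surface controls, and at 5.5, 4.99, 2.86 and 1.12 CPM (old) and 3.58 and 0.386 CPM (new) in Pachón controls. HMOX2 was at 12.4, 13.6, 15.6 and 15.8 CPM (old) and 17.8 and 15.9 CPM (new) in surface controls, and at 19.3, 26.8, 24.6 and 19.4 CPM (old) and 21.1 and 31.3 CPM (new) in Pachón controls. Neither gene's control groups overlapped, and they lay in opposite order. In controls hmox2a changed by -1.87 ± 0.43 (adjusted p = 0.00224) and HMOX2 by 0.64 ± 0.18 (adjusted p = 0.00849), the latter lost without Pachón new control 2 (0.49, adjusted p = 0.0702).

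In starved fish hmox2a changed by -1.44 ± 0.44 (adjusted p = 0.0153), which was lost without Pachón new starved 1 (-1.06, adjusted p = 0.0958), and HMOX2 by 0.52 ± 0.19 (adjusted p = 0.0428), which was lost without any of 8 libraries (adjusted p from 0.0512 to 0.283). The summed level of the pair was 21.5 to 28.8 CPM in surface and 16.7 to 33 CPM in Pachón libraries, and it overlapped. The inducible hmox1a was near its floor, with 66 counts in all surface and 15 in all Pachón libraries. Only the old starved surface libraries, with 30 and 11 counts, reached the filter's minimum count of 10. hmox1a was called lower in starved Pachón fish (-3.38 ± 1.19, adjusted p = 0.0333). Because that comparison uses the group that let the gene be tested, the call is no independent sign of a difference. It was lost without any of the 4 new starved libraries of both morphs (-3.48 to -3.29). The gene was tested in only 17 of the fits that left out 1 library.

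Both rows with the symbol nqo1 were lower in Pachón fish. The row ENSAMXG00000039966 was at 52.8, 68.3 and 72.5 CPM in surface and 38, 46.7 and 54.1 CPM in Pachón controls (lowest, median, highest of 6), with a slight overlap. Starved surface libraries had 83.2, 75.1, 44.1 and 76 CPM and starved Pachón libraries 43.3 to 52.3 CPM. Here 1 surface library, new starved 1, lay among the Pachón values. The change was -0.45 ± 0.12 in controls (adjusted p = 0.00736) and -0.57 ± 0.13 in starved fish (adjusted p = 0.00215). The row ENSAMXG00000007098 had 1.4, 0.609, 1.14 and 7.66 CPM (old) and 11.8 and 8.75 CPM (new) in surface controls and 0.666 to 2.51 CPM in Pachón controls. The old surface controls other than control 4 thus lay among or below the Pachón values. Only old control 4 and the new surface controls lay above them. The change of this row was -1.88 ± 0.47 in controls (adjusted p = 0.00432). In starved fish it was called at -1.63, a call lost without 1 library (-1.51).

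The methionine sulfoxide reductase msrb3, which repairs oxidised methionine, had the next lowest p after txnrd3 among members lower in Pachón fish. Surface controls had 19.4, 20.3, 24.4 and 23.7 CPM (old) and 24.4 and 28.7 CPM (new), and Pachón controls 6.88, 9.66, 8.75 and 7.45 CPM (old) and 8.24 and 7.15 CPM (new). Starved surface fish had 21.6, 25.4, 26.6 and 16.7 CPM and starved Pachón fish 8.21, 9.08, 9.1 and 9.94 CPM (old) and 5.27 and 8.21 CPM (new). No library crossed. The change was -1.60 ± 0.16 in controls (adjusted p = 4.98e-07) and -1.53 ± 0.17 in starved fish (adjusted p = 1.76e-06). The other tested reductase, msrb1a, was not called in controls (0.22 ± 0.26, adjusted p = 0.551) and was called higher in starved Pachón fish (1.03 ± 0.29, adjusted p = 0.00988), which was lost without surface old starved 1 (0.90, adjusted p = 0.0542).

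Of the 3 tested regulators, keap1a was called in starved fish. nfe2l2a, the NRF2 gene, was at 6.76, 12.6 and 21 CPM in surface and 7.86, 11.1 and 16.9 CPM in Pachón libraries (lowest, median, highest of 10 and 12). keap1b, a gene for its inhibitor, was at 46.6, 73.6 and 82.5 CPM and 61.5, 73.5 and 82.3 CPM. Neither was called (nfe2l2a -0.27 ± 0.29 and keap1b 0.10 ± 0.11 in controls, adjusted p = 0.501 and 0.525), and the ranges overlapped throughout. Its paralog keap1a had 0.349, 0.609, 2.29 and 0.341 CPM (old) and 4.23 and 0.648 CPM (new) in surface controls, and 0.983, 0.832, 7.32 and 2.61 CPM (old) and 8.77 and 2.9 CPM (new) in Pachón controls. Starved surface fish had 1.44 and 0.947 CPM (old) and 0.161 and 0 CPM (new), against 4.45, 3.63, 8.09 and 5.36 CPM (old) and 4.67 and 5.64 CPM (new) in starved Pachón fish. Controls overlapped and starved fish did not. The change was 1.49 ± 0.61 in controls (adjusted p = 0.0631) and 3.84 ± 0.85 in starved fish (adjusted p = 0.00184), on 17 counts in starved surface and 209 in starved Pachón libraries. With sample weights the starved change was 3.42 and not called (adjusted p = 0.114), whereas the change in controls was called with sample weights (1.58, adjusted p = 0.0439) and with DESeq2 (1.51, adjusted p = 0.0464). The control change was also called without Pachón new control 2, Pachón old control 1 or 2, surface new control 1 or surface old control 3 (adjusted p = 0.0479, 0.0457, 0.0398, 0.0257 and 0.0181). nfe2l2b was not tested, at 0 to 0.338 CPM in surface and 0 to 0.931 CPM in Pachón libraries. The 3 glutaredoxins were not called in either diet.

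Markers of other ovarian cells moved with the comparison in starved fish. The summed level of 10 stroma markers was 9.5 to 28.6 CPM in starved surface fish, 20.3 to 237 CPM in surface controls and 41.6 to 191 CPM in Pachón fish. In starved fish 7 of 9 tested stroma markers, 5 of 5 smooth muscle markers and 3 of 3 steroid cell markers were higher in Pachón fish. None of these 17 was called in controls. For stroma and smooth muscle markers the batches of controls lay in opposite order. Summed stroma markers were 20.3 to 66 CPM in old surface and 68.1 to 143 CPM in old Pachón controls, but 176 to 237 CPM in new surface and 71.1 to 117 CPM in new Pachón controls, with no overlap in either batch. Smooth muscle markers had the same order, at 11.3 to 33.8 and 32 to 40 CPM in old and 56 to 74 and 35.8 to 47.3 CPM in new controls. Steroid cell markers did not reverse. Their summed medians in surface and Pachón fish were 7.38 and 16.4 CPM in old and 15.7 and 17.8 CPM in new controls, and the morphs overlapped. Of other cell types in controls, 1 of 5 granulosa cell markers was lower, and 1 of 6 hepatocyte markers was higher and 1 lower. In starved fish 2 granulosa cell markers were higher and 1 lower, and 2 hepatocyte markers and 1 of 3 endothelial markers were higher. In each diet 1 of 7 oocyte markers was lower. Summed hepatocyte markers reached 45.5 CPM in old starved Pachón libraries (median 22) and 17.5 CPM in old surface controls, the next highest group. The 11 rows of macrophage markers summed to 570 to 846 CPM in surface and 737 to 1090 CPM in Pachón libraries. Of 5 tested macrophage rows, 2 were higher and 1 lower in Pachón controls, and 3 higher and 1 lower in starved Pachón fish. The part of these markers in the differences between morphs was not tested.

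On starvation in surface fish 3 of 55 were called, 1 higher and 2 lower, or 5.45% against 7.79% of all genes tested (2.42% higher and 5.37% lower). In edgeR 9 of 55 members and 3975 of 15607 genes had an unadjusted p under 0.05. The count of members called was 1 without surface old control 1 or either new surface control, and 11 without surface new starved 1. It was 0 with the surface groups fitted alone or with sample weights. The share of all genes called in each of these fits is not given here, so the counts show no change particular to members. The new starved surface libraries differed from each other more than any other pair of replicates (chi-square per degree of freedom of their gene counts 39.4, against 3.93 to 19.6), and the second had the lowest TMM factor, 0.833. The median change was -0.02 over members and -0.01 over all genes. In Pachón fish edgeR called 0 members, where 0% of all genes were called, and DESeq2 called 0 members as well. An unadjusted p under 0.05 in edgeR was found for 2 of 55 members and 1142 of 15607 genes. The test of the difference between the morphs' responses called 0 members, against 0.0256% of all genes, and DESeq2 called 0 as well. For that difference 6 of 55 members and 1446 of 15607 genes had an unadjusted p under 0.05 in edgeR.

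**Figure D3:**
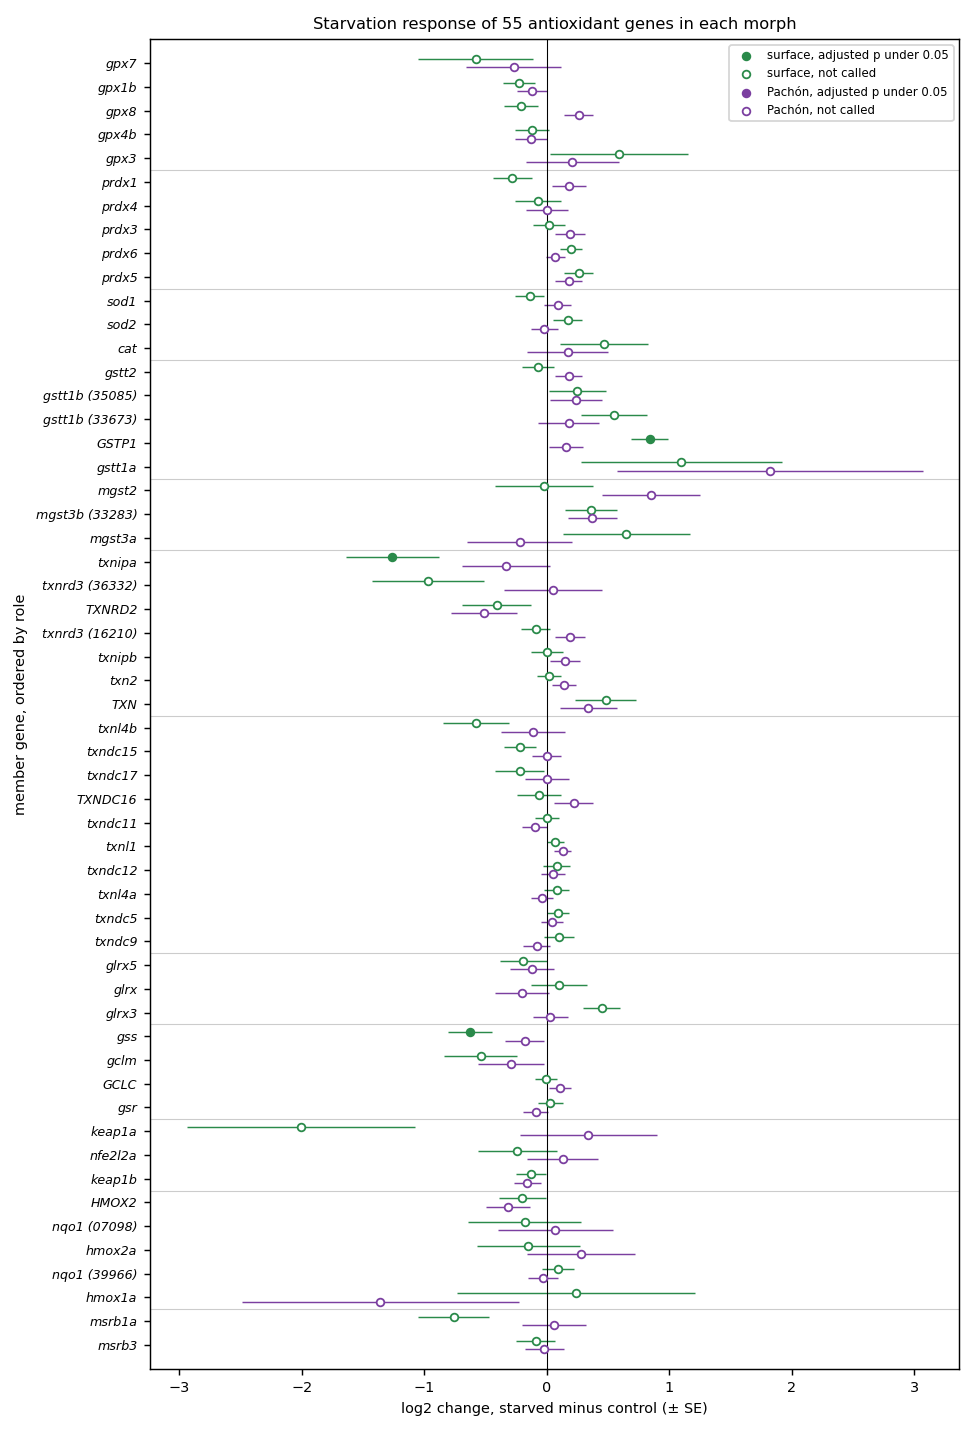
Change on starvation for the 55 tested members, ordered by role. The x axis is the log2 change, starved minus control, with bars for ± SE; green is surface and purple Pachón fish, filled where the adjusted p is under 0.05. Filled points are GSTP1, gss and txnipa in surface fish, and no Pachón point is filled.

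GSTP1 was the member that rose in starved surface fish. Its controls, given above, were at 60.9 to 86.9 CPM (old) and at 28.9 and 40.2 CPM (new), and starved surface fish had 96.3 and 91.6 CPM (old) and 78.7 and 107 CPM (new). Starved libraries lay above the controls of their own batch in both batches. The change was 0.84 ± 0.15 (adjusted p = 0.00342), but it was 0.26 in the old batch (adjusted p = 0.587) and 1.42 in the new one (adjusted p = 0.00343). The call was kept without each library, and lost when surface groups were fitted alone (adjusted p = 0.0575) or with sample weights (0.123). In Pachón fish GSTP1 had 80 to 119 CPM in controls and 88.3 to 144 CPM in starved fish (0.16 ± 0.14, adjusted p = 0.801). The response differed between morphs by -0.68 ± 0.20 (adjusted p = 0.24), and by -0.79 without surface new starved 1 (adjusted p = 0.0367).

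Glutathione synthetase, gss, fell in starved surface fish. Controls had 21.6, 17.5, 13.9 and 18.4 CPM (old) and 18.6 and 19.4 CPM (new), and starved fish 15 and 10.6 CPM (old) and 12.6 and 9.44 CPM (new). Old control 3 lay below old starved 1, and in the new batch the groups did not overlap. The change was -0.63 ± 0.18 (adjusted p = 0.0352), with -0.48 (old) and -0.78 (new) within batches, neither called alone. The call was lost without surface new control 1 or 2, new starved 2, old control 1 or old starved 2 (adjusted p from 0.0568 to 0.149). In Pachón fish gss was not called (-0.18 ± 0.16, adjusted p = 0.809).

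The call of txnipa lay at the threshold. Starved surface fish had 98.4 and 92 CPM (old) and 27.4 and 16.1 CPM (new), against the control values given above. The new batch separated, with 101 and 81.5 CPM in controls, while the old batch overlapped. The change was -1.26 ± 0.38 (adjusted p = 0.04997), made of -0.47 in the old batch (adjusted p = 0.709) and -2.06 in the new one (adjusted p = 0.0558). It was lost without any of 20 of the 22 libraries (adjusted p from 0.0522 to 0.23). prdx1 was called in the new surface batch alone, at 161 and 112 CPM in controls and 78.5 and 67.8 CPM in starved fish (-0.90, adjusted p = 0.0437). In the old batch it was at 126, 118, 172 and 127 CPM and then 162 and 179 CPM, a change of 0.33 (adjusted p = 0.502). The difference between batches in the response to starvation was not tested for any member.

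In Pachón fish the smallest p belonged to gpx8, at 28.3, 25.3, 29.6 and 28.5 CPM (old) and 30.4 and 31.3 CPM (new) in controls, against the starved levels of 32.4 to 39.6 CPM given above. Starved and control libraries did not overlap, as for no other member (1.82% of members against 0.602% of all genes), and the change was 0.26 ± 0.12 (unadjusted p = 0.0457, adjusted p = 0.675). After it came mgst2 (0.85 ± 0.40, adjusted p = 0.677), TXNRD2 (-0.51 ± 0.27, adjusted p = 0.696) and HMOX2 (-0.32 ± 0.18, adjusted p = 0.696). The groups of those 3 overlapped. For the difference between responses, gpx8 gave 0.47 ± 0.18 (adjusted p = 0.412), prdx1 0.46 ± 0.21 (adjusted p = 0.53) and keap1a 2.35 ± 1.09 (adjusted p = 0.529).

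In surface fish the stroma, smooth muscle and steroid markers moved with starvation: 9 of 9, 4 of 5 and 3 of 3 tested markers fell, against 5.37% of all genes. In Pachón fish none was called, where 0% of all genes were called, and their median changes were -0.49, -0.77 and -1.19. The test of the difference between the morphs' responses called 0 of these markers. The summed smooth muscle level was 4.75 to 10.3 CPM in starved surface fish and 11.3 to 74 CPM in surface controls, and the steroid cell level 0.288 to 2.15 CPM and 2.89 to 24.4 CPM. Among granulosa cell markers 3 of 5, among endothelial markers 1 of 3 and among macrophage markers 1 of 5 fell in surface fish. Oocyte markers were 2750 to 4630 CPM in starved surface fish and 2340 to 2780 CPM in controls, and 1 of 7 rose. Their part in the changes of GSTP1, gss and txnipa was not tested.

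**Figure D4:**
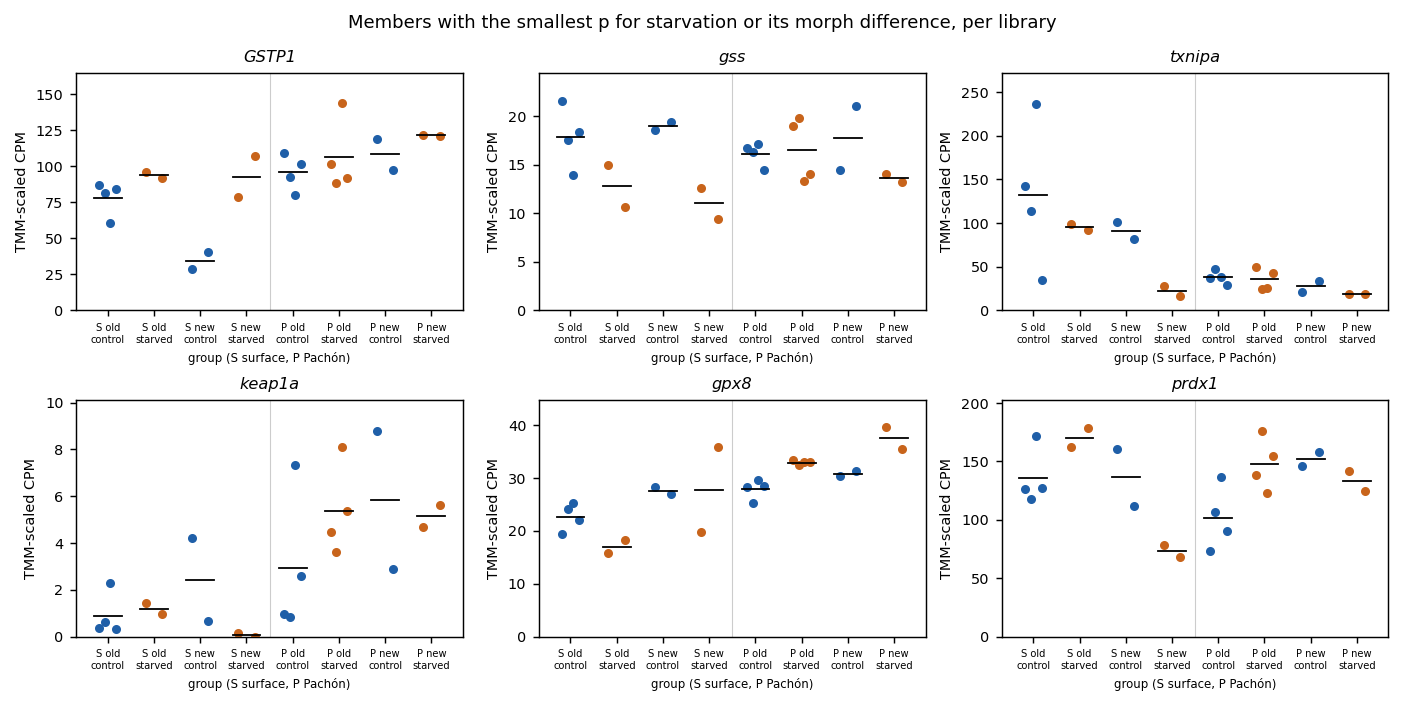
Levels of 6 members in every library. They are the 3 called for starvation in surface fish and 3 with a low unadjusted p for the difference between the morphs' responses to starvation. The latter were not called for that difference. The y axis is TMM-scaled CPM, each point is a library, lines are group means, S and P are surface and Pachón fish, blue is control and orange starved. GSTP1 is lowest in the new surface controls (28.9 and 40.2 CPM), and txnipa is low in the new starved surface fish (27.4 and 16.1 CPM).

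The batches of surface controls differed in some members. Old against new, 5 of 55 were called, 3 higher and 2 lower, or 9.09% against 7.36% of all genes tested (3% higher and 4.36% lower). In Pachón controls edgeR called 0 members against 0.032% of all genes. There 1 of 55 members and 560 of 15607 genes had an unadjusted p under 0.05. That member was prdx1, at 72.9, 107, 137 and 90.7 CPM (old) and 146 and 158 CPM (new), a change of -0.58 ± 0.20 (unadjusted p = 0.0102, adjusted p = 1). gstt2 was lower in old surface controls (-0.96 ± 0.16, adjusted p = 0.00161), the only one of the 5 whose call was kept without each library. GSTP1 was higher in old ones by 1.18 ± 0.21 (adjusted p = 0.0024), txndc11 by 0.70 ± 0.14 (adjusted p = 0.00528) and gpx3 by 3.28 ± 0.82 (adjusted p = 0.0202). Without surface new control 1 all 3 calls were lost (adjusted p = 0.0634, 0.107 and 0.207). The nqo1 row ENSAMXG00000007098 was lower in old ones (-1.92 ± 0.58, adjusted p = 0.0496), a call lost without any of 19 libraries.

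For txndc11, a thioredoxin-domain protein of the endoplasmic reticulum, old surface controls had 43.6, 41.7, 34.3 and 45.1 CPM and new ones 23.2 and 27.5 CPM. Pachón controls had 39.9, 38.8, 40.3 and 44.7 CPM (old) and 44.6 and 43.7 CPM (new). The new surface controls lay below the other controls. New starved surface fish had similar levels, at 29.3 and 26.8 CPM, against 40.8 and 33.8 CPM in old starved surface fish. gpx3 had 1.05, 1.98, 1.53 and 2.55 CPM in old and 0 and 0.324 CPM in new surface controls, so the new ones held 0 and 2 counts and the size of that change depends on the fit. Stroma markers moved with the batch too: their summed level was 20.3 to 66 CPM in old and 176 to 237 CPM in new surface controls. In the old batch 7 of 9 were lower, against 4.36% of all genes tested. So were 3 of 5 smooth muscle, 1 of 5 granulosa cell, 1 of 3 endothelial and 1 of 5 macrophage markers. Of 7 oocyte markers, 1 was higher and 1 lower. The part of these markers in these changes was not tested. Age and batch cannot be told apart, because the ages are not tied to the batches.

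**Figure D5:**
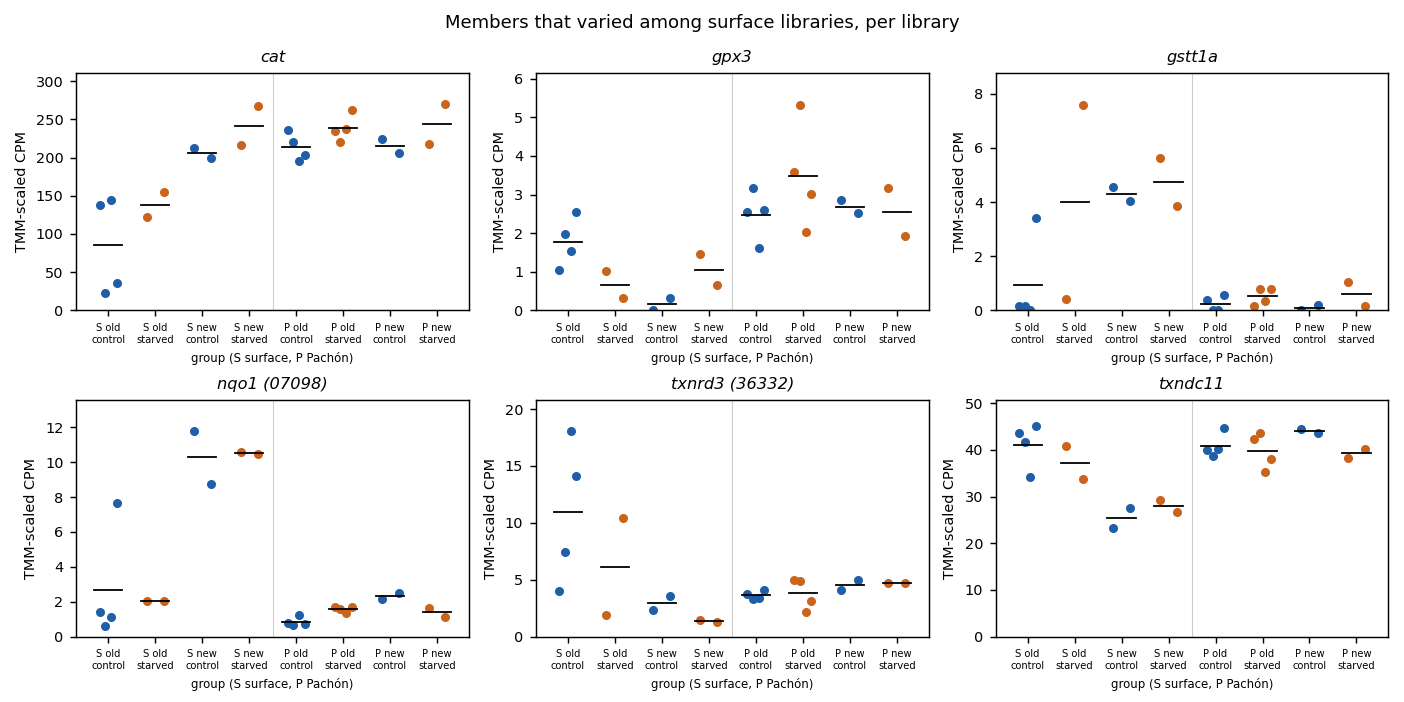
Levels of 6 members that varied among surface libraries. The y axis is TMM-scaled CPM, each point is a library, lines are group means, S and P are surface and Pachón fish, blue is control and orange starved. Old surface controls spread from 22.8 to 145 CPM for cat, where Pachón libraries lie at 195 to 270 CPM.

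In a comparison chosen after the data were seen, the difference between morphs in controls was itself compared between batches (old minus new). It called 3 of 55 members, 5.45% against 1.02% of all genes tested (0.583% higher and 0.436% lower): GSTP1 (-1.36 ± 0.28, adjusted p = 0.0237), gstt2 (1.04 ± 0.23, adjusted p = 0.0317) and txndc11 (-0.81 ± 0.19, adjusted p = 0.0484). Pachón exceeded surface fish in gstt2 by 2.28 (old) and 1.25 (new). In txndc11 the morph difference was -0.01 (old) and 0.80 (new). None of the 3 calls was kept without each library: GSTP1 lost it without Pachón new control 1 or surface new control 1 (adjusted p = 0.134 and 0.139), gstt2 without any of 8 libraries and txndc11 without any of 18.

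Neighbouring pathways were read from lists of genes, whose counts stand against the 34.6% (controls) and 36% (starved fish) of all genes called. Of 18 tested genes that supply NADPH, 5 were higher and 4 lower in Pachón controls and 6 higher and 3 lower in starved Pachón fish, with a median change of 0.14 in each, where all genes had -0.01 and 0. TKT, a transketolase of the pentose phosphate pathway, was far higher (4.62 ± 0.40 in controls, adjusted p = 6.75e-08, and 4.54 ± 0.44 in starved fish, adjusted p = 4.02e-07). Mitochondrial idh2 was higher (0.67 ± 0.08 in controls, adjusted p = 3.3e-06) and malic enzyme me1 lower (-1.09 ± 0.21, adjusted p = 0.000538). Of 20 genes of cysteine supply and glutathione turnover, 3 were higher and 2 lower in Pachón controls (median -0.04). They included cbsa, which feeds sulfur toward cysteine, at 1.57 ± 0.21 (adjusted p = 1.76e-05), and the glutathione-conjugate pump ABCC1 at -0.37 ± 0.07 (adjusted p = 0.000278).

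Of 23 partners and other targets of NRF2, 6 were higher and 1 lower in Pachón controls (median -0.03), and 3 higher and 2 lower in starved Pachón fish (median 0.14). The ferritin gene fth1b was higher (1.66 ± 0.14 in controls, adjusted p = 4.02e-08), as was bach1b, a repressor of NRF2 targets in mammals (0.79 ± 0.18, adjusted p = 0.00179). Of 15 genes of selenoprotein synthesis and other selenoproteins, 2 were higher and 4 lower in each diet. Of 13 sources of superoxide and peroxide, 2 were higher and 3 lower in Pachón controls (median -0.05), and 4 higher and 2 lower in starved Pachón fish (median 0.1). Both aox5 rows were lower (-2.70 ± 0.38 and -3.21 ± 0.40 in controls, adjusted p = 2.82e-05 and 6.84e-06), and cyba, a subunit of NADPH oxidase, was higher (1.49 ± 0.23, adjusted p = 5.78e-05).

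On starvation in surface fish, 2 of the 23 tested NRF2-related genes rose and 2 fell, and 1 of 18 tested NADPH genes fell. Of all genes tested, 7.79% were called in that comparison (2.42% higher and 5.37% lower). fth1b rose by 0.75 ± 0.14 (adjusted p = 0.00473), and H6PD, which makes NADPH in the endoplasmic reticulum, changed by -1.10 ± 0.27 (adjusted p = 0.0181). The other 3 lists had no call there, and in Pachón fish no gene of the 5 lists was called, where 0% of all genes were called.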

How the data were processed

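Total RNA from right-side ovaries was extracted with Trizol, depleted of ribosomal RNA, made into directional libraries and read on a Singular Genomics instrument, per the labels' protocols. Per the submitters' processing notes, STAR (2.7.10b) and RSEM were among the tools. For the genome build, annotation and strand setting: not given in the sources used here. Deposited counts are whole numbers per gene made by the authors, with 4 rows that name no gene (32.4 to 44.6% of listed reads per library), which were left out. The authors' deposited scaled CPM (a signal value) served only an alternative test and lacks 1 tested member.

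Counts of 27420 genes in 22 libraries were filtered with edgeR's filterByExpr (minimum count 10, minimum total 15), scaled by TMM and fitted with edgeR 4.0.16 in R 4.3.3: glmQLFit (robust) on 8 group means over all libraries, contrasts that weight batches equally, and Benjamini-Hochberg adjustment over 15607 genes. The SE is the log2 change divided by the square root of F. A gene was called at an adjusted p under 0.05. The models were tested on simulated data. Any member could be named, with library values for up to 6 called members of smallest p in each direction of a comparison, the 4 of smallest p where fewer than 3 were called, and cat, sod1, sod2, gpx4, nfe2l2 and keap1 genes. For a few further called members library values are given as ranges. From pathway lists at most 3 genes of smallest p in a comparison were named. The members and lists were chosen with earlier results of these data known, and the comparison of batches between morphs was added after the data were seen.

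Alternatives were DESeq2 1.42.0, its size factors in edgeR, no filter, limma 3.58.1 with voom sample weights, limma on log2(scaled CPM + 1), groups compared alone, the replicate number as a block, and leaving out each library. Levels carry counting error (3 counts as the floor), and no sequence is printed because no sequence tables were used here.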

Additional observations from a re-analysis of the deposited data

Results flagged for a closer look

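In groups of 4 libraries, 5 of 135 pairs of member and group held a library far from the other 3, where chance gives about 1 in 20. All 5 were among the old surface controls. Surface old control 4 had 3.41 CPM of gstt1a, against 0 to 0.174 CPM in the others, and 7.66 CPM of the nqo1 row ENSAMXG00000007098, against 0.609 to 1.4 CPM. Surface old control 3 had 2.29 CPM of keap1a, against 0.341 to 0.609 CPM, and 172 CPM of prdx1, against 118 to 127 CPM. Surface old control 2 had 51.8 CPM of gsr, against 45.2 to 46 CPM.

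The difference between morphs in controls was called as differing between batches, old minus new, for 3 members by the test of that difference in edgeR: GSTP1 (-1.36, adjusted p = 0.0237), gstt2 (1.04, adjusted p = 0.0317) and txndc11 (-0.81, adjusted p = 0.0484). This is 5.45% of members against 1.02% of all genes tested, in a comparison chosen after the data were seen. None of the 3 calls was kept without each library. With the replicate number as a block all 3 were lost (adjusted p = 0.0618, 0.0932 and 0.0906). For all 3 the new surface controls stood apart from the old ones, and stroma markers were higher in the new surface controls as well. Their part in these differences was not tested.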

How the results depend on the processing

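Of 67 called changes of members, 31 kept their call in every alternative, 33 in every fit without 1 library, and none changed sign. Without 1 library each, members called ranged from 22 to 29 between morphs in controls, from 20 to 29 in starved fish, from 1 to 11 for starvation in surface fish (11 without surface new starved 1; 1 without surface old control 1, surface new control 1 or surface new control 2), from 0 to 1 for the difference between responses (1 without surface new starved 1), from 1 to 6 between batches of surface controls (1 without surface new control 1), and from 0 to 3 for the morph difference between batches. For Pachón starvation and Pachón batches the count stayed at 0. Starvation in surface fish gave 1 member with no filter, 0 with groups compared alone and 0 with voom sample weights. Sample weights also left 16 members between morphs in starved fish. Between batches of surface controls, groups compared alone gave 2. The cause of these changes was not tested. For the fits without 1 library, the shares of all genes called are not given here, so these counts show no change particular to members. Groups compared alone could not be run for the difference between responses, which needs all groups.

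Values near 0 that were not called changed sign without 1 library: for the morph difference in starved fish, nfe2l2a ranged from -0.17 to 0.53 (-0.02 in a further fit) and keap1b from -0.09 to 0.3; for starvation in surface fish, nfe2l2a from -0.65 to 0.03, keap1b from -0.36 to 0.05 and sod2 from -0.01 to 0.33; for starvation in Pachón fish, sod2 from -0.11 to 0.09, with 0, 0, 0.01 and 0.02 in 4 further fits.

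Replicate numbers repeat across groups. Deviations from the group mean were correlated over 0.1 in 2 of 30 pairs of libraries with the same number (median -0.00072). This held for 11 of 66 pairs with different numbers. In groups of 2 libraries the deviations mirror each other: surface new control 1 gave -0.19 with new starved 1 and 0.19 with new starved 2. These counts therefore cannot decide whether the numbers pair the libraries. The labels give no pairing, and the main fits used none. With the replicate number as a block, 28 members were called between morphs in controls and 23 in starved fish, 3 between batches of surface controls and 0 for the morph difference between batches. The shares of all genes called in that fit are not given here, so these counts show no change particular to members. Under the block keap1a was called between morphs in controls (1.48, adjusted p = 0.0182). At common dispersion 0.0501 and the depth of these libraries, the 12 untested members give no comparison.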
